A study of Mus musculus with 30 samples.

Results

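The early growth response (Egr) and nuclear receptor 4A (Nr4a) transcription factors were followed in mouse forebrain after long oral treatment with clozapine or haloperidol. All probe sets whose platform gene symbol was Egr1, Egr2, Egr3, Egr4, Nr4a1, Nr4a2 or Nr4a3 were taken, which gave 10 probe sets of 7 genes, among 22626 probe sets that name 12393 genes singly. Egr2, Nr4a2 and Nr4a3 had 2 probe sets each and the other genes 1. Only 6 of the 10 probe sets, for Egr1, Egr2, Nr4a1 and Nr4a2, had a mean of at least 4 on the log2 scale over all 30 arrays and entered the tests, beside 12944 probe sets in all. The probe sets of Egr3, Egr4 and Nr4a3 lay below that level and are described by their values.

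Egr proteins are zinc finger transcription factors and Nr4a proteins are nuclear receptors that act without a known natural ligand in the classical sense. Genes of both families are immediate early genes: neuronal activity, through calcium and cAMP signalling, raises their transcription within minutes without new protein synthesis, by way of the factors CREB and SRF at their promoters. Egr1 has a steady level in cortex and hippocampus that depends on ongoing activity, Nr4a1 is sensitive to dopamine in the rodent striatum, and Nr4a2 is needed for the development and upkeep of midbrain dopamine neurons. Haloperidol given acutely is known to raise Egr1 and Nr4a1 mRNA in the rodent striatum, and the values here are of mice after weeks of treatment.

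The mice were male C57BL animals, housed singly, in 3 groups of 10. The clozapine group received clozapine, an atypical antipsychotic, at 12 mg/kg/day. The haloperidol group received haloperidol, a typical antipsychotic and dopamine receptor blocker, at 1.6 mg/kg/day, and control mice received no drug. Both drugs were given in the drinking water for 12 weeks, so the interval between the last intake and death is not set by the protocol. RNA of each animal went to its own Affymetrix MOE430A array without pooling. The age label of 4 weeks cannot be the age at death, the hemisphere is given as right in 3 fields and as left in another, and the dose note in the haloperidol protocol names clozapine.

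The arrays fell into clusters that held several groups in unequal numbers, so that array cluster and drug were partly confounded. Average linkage over the 12944 probe sets gave cluster A with 11 arrays, 3 of clozapine, 5 of haloperidol and 3 of control mice, cluster B with 8, split 1, 3 and 4 in the same order, and cluster C with 7, split 5, 0 and 2. Clozapine 7, haloperidol 2, haloperidol 7 and control 1 were in none of them. The last 3 are called outlying arrays below, without a stated rule, and clozapine 7 was kept where they were left out. All 11 arrays of cluster A, 1 of cluster B and 4 of cluster C had replicate numbers 1 to 6. What the clusters and the replicate numbers stand for is not given in the sources used here. RNA quality was read as the 3′ minus 5′ difference in the control probe sets for Gapdh and Actb, which is larger in degraded RNA. It averaged 0.64 ± 0.11 in cluster A, 0.60 ± 0.15 in cluster B and 1.06 ± 0.22 in cluster C (SD, n = 11, 8 and 7). Its median was 0.88 in clozapine, 0.56 in haloperidol and 0.67 in control mice.

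The tissue label was set against marker genes. Markers of forebrain excitatory neurons (3 of 5 matched) and of striatal projection neurons (4 of 7 matched) were all above the filter, and of the 5 cerebellar markers Pcp2, En2 and Gabra6 were below it and Cbln1 and Calb1 above it, at means of 6.01 and 10.45. The 4 matched blood markers had means below it too, and none of 3 Schwann cell markers, which would bear on Egr2, was matched. The highest array was at 7.01 for S100a8, 5.95 for Alas2, 3.24 for Cd3e and 2.66 for Hba-a1, and Hbb-b1 was not matched. Of 5 markers of midbrain dopamine neurons, which bear on Nr4a2, 4 were matched and all 4 were above the filter. Their means were 7.29 for Th, 5.52 for Slc6a3, 8.79 for Aldh1a1 and 6.79 for Ddc. The mean of the 3 excitatory markers ran from 6.81 to 8.48 in clozapine, 6.46 to 8.80 in haloperidol and 7.07 to 9.13 in control mice. Camk2a, among these markers, ran from 2.96 to 11.32 over all arrays. No marker was called in any comparison. In whole forebrain tissue, fewer cells that express a gene and less of its RNA per cell cannot be told apart.

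Promoters were looked up because Egr and Nr4a genes are textbook targets of CREB and SRF, and windows of 300 bases, 250 before and 50 after a transcript start, were matched in the RefSeq table of GRCm38.p6 for 5 of the 7 genes: Egr2 (5 starts), Egr4, Nr4a1, Nr4a2 and Nr4a3. Egr1 and Egr3 were not matched. The 250 bases before a start are shown for Egr2, Nr4a1 and Nr4a2, matched members with probe sets in the tests, with the cAMP response element core TGACG or its reverse complement CGTCA in capitals. In Egr2 the capitals also mark a CArG box (CC, 6 letters A or T, GG), the motif bound by SRF. The Egr2 window is chr10:67537619-67537868 on the + strand, the Nr4a1 window chr15:101266596-101266845 on the + strand and the Nr4a2 window chr2:57124004-57124253 on the - strand.
Egr2: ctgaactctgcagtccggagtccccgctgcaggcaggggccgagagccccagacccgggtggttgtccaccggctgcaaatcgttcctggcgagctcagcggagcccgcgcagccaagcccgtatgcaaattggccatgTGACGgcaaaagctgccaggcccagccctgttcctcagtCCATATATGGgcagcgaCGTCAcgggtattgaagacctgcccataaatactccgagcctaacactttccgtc
Nr4a1: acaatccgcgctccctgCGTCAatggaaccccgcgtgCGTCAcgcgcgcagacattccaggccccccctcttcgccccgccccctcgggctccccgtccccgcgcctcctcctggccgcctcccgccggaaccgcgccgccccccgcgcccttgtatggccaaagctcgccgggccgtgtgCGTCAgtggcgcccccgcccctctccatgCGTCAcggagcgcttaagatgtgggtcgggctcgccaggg
Nr4a2: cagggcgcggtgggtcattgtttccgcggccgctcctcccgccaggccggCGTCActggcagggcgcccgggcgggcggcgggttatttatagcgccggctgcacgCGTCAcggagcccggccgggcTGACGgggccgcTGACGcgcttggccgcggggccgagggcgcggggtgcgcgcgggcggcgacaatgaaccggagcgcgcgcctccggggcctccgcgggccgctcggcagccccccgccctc

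The core occurred 4 times in the window of each Nr4a gene, 2 times in that of Egr4 and 2 times in the Egr2 window shown. Over all 32851 promoter windows, 20.8% held at least 1 core, 5.01% at least 2 and 0.231% at least 4 (both strands, matches may lie inside a full element). The full element TGACGTCA was in 1.79% of all windows and in none of the members' windows. The Nr4a binding motif AAAGGTCA was in 1.51% of all windows, the Egr motif GCGTGGGCG in 0.612% and a CArG box in 1.63%. Of these 3 motifs, the members' windows held only CArG boxes, at 4 of the 5 Egr2 starts, of which 3 share 1 box in overlapping windows, so that there were 2 distinct boxes. The same 3 starts held 2 cores each, and the remaining 2 starts held none. These matches describe letters in the windows and not sites in use.

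Egr1, a zinc finger factor tied to synaptic plasticity, had its lower values in control mice. In clozapine mice its lowest, median and highest log2 values were 11.21, 11.35 and 11.70, in haloperidol mice 11.24, 11.35 and 11.78, and in control mice 10.62, 11.19 and 11.49. The ranges overlapped, but all 10 clozapine and all 10 haloperidol arrays lay above the control mean, and the 2 lowest arrays of the 30 were control 7 and control 8. Means were 11.37 ± 0.14 in clozapine, 11.43 ± 0.19 in haloperidol and 11.13 ± 0.26 in control mice (SD, n = 10 each).

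The clozapine minus control difference of Egr1 was 0.24 on the log2 scale (SE 0.10, 95% interval 0.03 to 0.45), a ratio of 1.18, with an unadjusted p of 0.025 and an adjusted p of 0.9997 in limma. The haloperidol minus control difference was 0.30 (SE 0.10, interval 0.09 to 0.51), a ratio of 1.23, with an unadjusted p of 0.0058 and an adjusted p of 0.9999 in limma. Both differences thus missed the call threshold, and they share the same control arrays. With arrays weighted by how well they fit their group, control arrays 7 to 10, all of cluster B, had the highest weights. In that fit, without array cluster, Egr1 was called for clozapine minus control at 0.39 (SE 0.10, adjusted p = 0.017 in limma). It was not called for haloperidol minus control at 0.42 (SE 0.11, adjusted p = 0.15 in limma). With array cluster as a block, clozapine minus control was 0.17 (SE 0.10, interval -0.04 to 0.39, unadjusted p 0.11), which no longer excludes 0. Haloperidol minus control was 0.29 with the block (SE 0.10, interval 0.08 to 0.51). Within clusters, splits chosen after seeing the data, haloperidol minus control was 0.12 in A (SE 0.12) and 0.58 in B (SE 0.16). Clozapine minus control was 0.16 in A (SE 0.14) and -0.05 in C (SE 0.17). Of all 12944 probe sets, 2.05% had an unadjusted p as small as that of Egr1 in the clozapine comparison and 0.108% in the haloperidol comparison. Clozapine minus haloperidol was -0.06 (interval -0.27 to 0.14), so the drug groups, neighbours in the order of levels, did not differ beyond their spread. That value was -0.03 without haloperidol 2 and -0.12 with the cluster block.

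Egr1 was also read by replicate number, a split made after seeing the data. Among the arrays numbered 7 to 10 the values were 11.21 to 11.70 in clozapine, 11.24 to 11.78 in haloperidol and 10.62 to 11.21 in control mice, against 11.27 to 11.45, 11.30 to 11.71 and 10.998 to 11.49 among the arrays numbered 1 to 6. Haloperidol and control arrays 7 to 10 did not overlap, as was true of 4.74% of all tested probe sets in either direction, and no other range of a tested member was separate from that of its control group or of the other drug (35.8% of probe sets for clozapine against control and 4.47% between the drugs). Within numbers 1 to 6, 0 of 6 member ranges were separate in each comparison, beside 0.0927%, 0.193% and 0.185% of all probe sets for clozapine minus control, haloperidol minus control and clozapine minus haloperidol. The haloperidol minus control difference was 0.52 (SE 0.17) within numbers 7 to 10 and 0.15 (SE 0.12) within numbers 1 to 6, and the test of the change between these sets gave 0.37 (SE 0.19, adjusted p = 0.58 in limma). For clozapine minus control the values were 0.44 (SE 0.17) and 0.11 (SE 0.12), and the change was 0.33 (SE 0.19, adjusted p = 0.33 in limma). No cluster held both clozapine and control arrays of numbers 7 to 10. Within groups, Egr1 had a residual SD of 0.20, against a median of 0.44 over all tested probe sets.

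Egr2, known for its part in hindbrain patterning and in myelination by Schwann cells and induced by activity in forebrain neurons, had residual SDs within groups of 0.73 and 0.83 in its probe sets, against 0.20 for Egr1. Probe set 1427683_at had a lowest, median and highest value of 5.83, 6.22 and 7.33 in clozapine mice, 4.93, 6.59 and 7.41 in haloperidol mice and 4.38, 6.24 and 7.14 in control mice. The medians lay close together and the groups overlapped. The 4 lowest arrays were control 7, haloperidol 10, control 10 and control 8, all of cluster B. The second probe set, 1427682_a_at, had values of 5.11, 5.83 and 6.98 in clozapine, 4.32, 5.84 and 6.52 in haloperidol and 3.30, 5.45 and 6.70 in control mice, and it too had its lowest array in control 7.

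Clozapine minus control was 0.33 (SE 0.31, interval -0.31 to 0.96) for 1427683_at and 0.58 (SE 0.35, interval -0.14 to 1.31) for 1427682_a_at. Haloperidol minus control was 0.44 (SE 0.31, interval -0.19 to 1.08) and 0.25 (SE 0.35, interval -0.48 to 0.97) in the same order. With array cluster as a block, clozapine minus control was 0.06 (SE 0.28) and 0.29 (SE 0.24) and haloperidol minus control 0.28 (SE 0.28) and -0.08 (SE 0.24), and without haloperidol 2 the haloperidol value of 1427682_a_at was 0.14. Neither probe set passed the test, with adjusted p-values of 0.9997 for clozapine and 0.9999 for haloperidol in limma. With array weights, 1427682_a_at was called for clozapine minus control at 1.21 (SE 0.37, adjusted p = 0.034 in limma), and 1427683_at was not, at 0.94 (SE 0.33, adjusted p = 0.053 in limma). The control arrays of highest weight, 7 to 10, were all of cluster B, and array cluster was not in that fit. Clozapine minus haloperidol had opposite signs in the pair of probe sets, at -0.12 (interval -0.76 to 0.52) and 0.34 (interval -0.39 to 1.06), and without haloperidol 2 the first was -0.02.

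Egr2 was low in array cluster B in both probe sets. For 1427682_a_at the cluster means were 6.20 ± 0.42 in A, 4.57 ± 0.69 in B and 5.90 ± 0.32 in C, and the highest array of cluster B, at 5.32, lay below the lowest of cluster A, at 5.55. For 1427683_at they were 6.65 ± 0.38, 5.54 ± 0.82 and 6.51 ± 0.49 (SD, n = 11, 8 and 7). The clusters were built from all tested probe sets, these included, so no test is given. The mean of the excitatory neuron markers was 8.02 ± 0.30 in cluster A, 8.73 ± 0.30 in B and 7.93 ± 0.50 in C, and its part in the Egr2 values was not tested.

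By replicate number, control arrays 7 to 10 had 4.38 to 6.24 in 1427683_at, against 5.83 to 7.33 in clozapine and 4.93 to 6.79 in haloperidol arrays of those numbers. Among numbers 1 to 6 the values were 5.96 to 6.77 in clozapine, 6.35 to 7.41 in haloperidol and 5.98 to 7.14 in control mice. The clozapine minus control difference was 1.30 (SE 0.47) within numbers 7 to 10 and -0.33 (SE 0.23) within 1 to 6, and the change between them, 1.63 (SE 0.49), had an unadjusted p of 0.0025 and an adjusted p of 0.081 in limma. In 1427682_a_at the change was 1.30 (SE 0.49, adjusted p = 0.15 in limma). Of the arrays numbered 7 to 10, all 4 of control mice were in cluster B, where Egr2 was low, and of those of clozapine mice 3 were in cluster C and 1 in none, so drug and cluster cannot be told apart there. Over all 12944 probe sets, 185 changes of this kind were called for clozapine minus control and 0 for the other comparisons. An unadjusted limma p under 0.05 was found for 2608 of the 12944 for clozapine minus control. It was found for 1073 for haloperidol minus control and 872 for clozapine minus haloperidol.

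**Figure D1:**
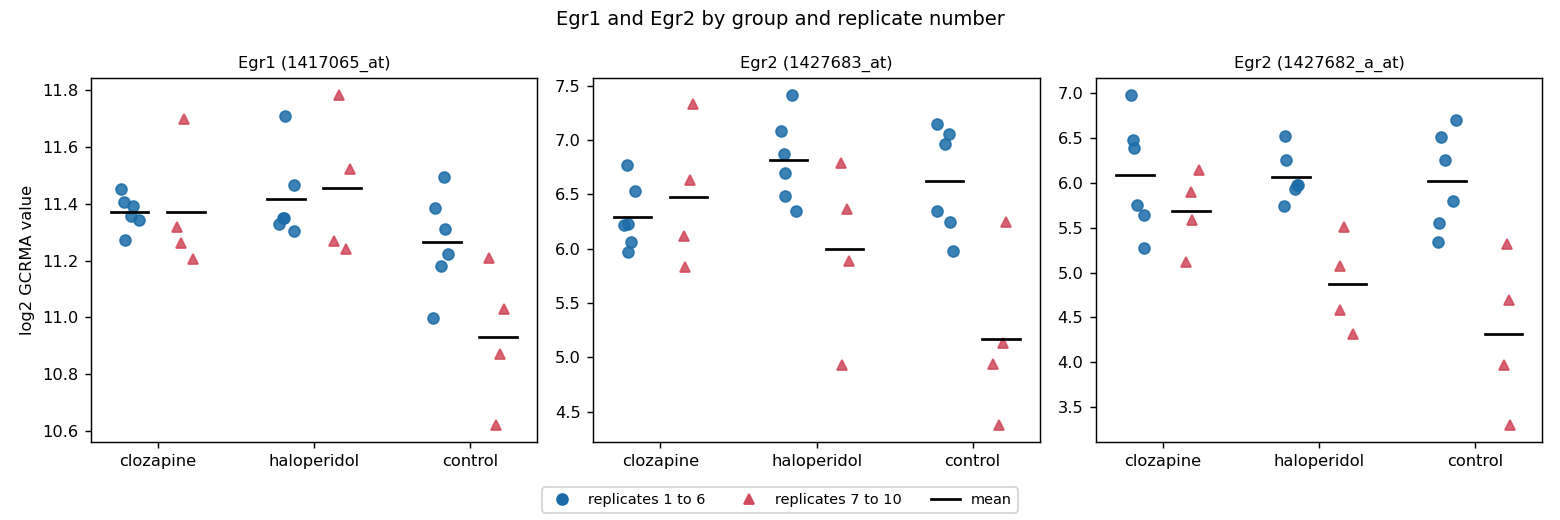
Log2 GCRMA value of Egr1 and of both Egr2 probe sets for each mouse (vertical axes, scales differ), by group and by replicate number, with the mean as a bar. The lowest array in each panel is control 7. Control arrays numbered 7 to 10 run from 10.62 to 11.21 for Egr1 and from 4.38 to 6.24 for Egr2 1427683_at. In the latter, haloperidol 10 at 4.93 is next lowest.

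Egr3 and Egr4, family members induced by neuronal activity, lay near the floor of the values. Egr3 ran from 0.77 to 0.86 in clozapine, 0.77 to 0.87 in haloperidol and 0.75 to 0.83 in control mice, a narrow spread in which the groups overlapped. Egr4 was between 0.53 and 0.64 on 27 arrays and above 1 on only 3, haloperidol 2 at 2.32, haloperidol 9 at 1.996 and haloperidol 8 at 1.20. These 3 mice ranked 2, 1 and 4 of 30 for Egr1, while clozapine 10, which ranked 3 for Egr1, had 0.59 for Egr4. Haloperidol 2 had 10.54 for Nr4a1 and 7.41 for Egr2 1427683_at, the highest value of either gene. The array of haloperidol 2 was in no cluster and those of haloperidol 8 and 9 were in cluster B.

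Without the filter on low values, Egr4 differed by 0.37 between haloperidol and control mice (SE 0.17, unadjusted p 0.033, adjusted p = 0.93 in limma). The group mean rests on these 3 arrays, and with haloperidol 2 left out the difference was 0.22. For clozapine minus control the Egr4 difference was 0.01 (SE 0.17). Background correction by GCRMA narrows such low values, so these differences are not fold changes of the RNA.

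Nr4a1, the Nur77 receptor, was not called in any comparison. Its lowest, median and highest values were 8.97, 9.40 and 9.87 in clozapine mice, 8.34, 9.97 and 10.54 in haloperidol mice and 7.49, 9.41 and 10.39 in control mice. Haloperidol values were low in haloperidol 7 and haloperidol 10, clozapine values lay in a narrow band, and the lowest control array was control 1. Control 1 and haloperidol 7 also had the largest 3′ minus 5′ differences of all arrays, at 4.09 and 2.45. Means were 9.43 ± 0.29 in clozapine, 9.79 ± 0.73 in haloperidol and 9.27 ± 0.81 in control mice (SD, n = 10 each). The residual SD of 0.65 was above that of 80.2% of the tested probe sets.

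Haloperidol minus control was 0.52 for Nr4a1 (SE 0.28, interval -0.06 to 1.09, unadjusted p 0.075, adjusted p = 0.9999 in limma), and 8 of 10 haloperidol arrays lay above the control mean. Without control 1, an outlying array, it was 0.32. Without haloperidol 7 it was 0.68 (SE 0.26, unadjusted p 0.015, adjusted p = 0.82 in limma). With array cluster as a block it was 0.44 (SE 0.22, unadjusted p 0.052 in limma). With RNA quality as a covariate it was 0.38 (SE 0.23, unadjusted p 0.11 in limma). Clozapine minus control was 0.17 (SE 0.28, interval -0.41 to 0.74), without control 1 it was -0.03, and with array cluster as a block -0.21 (SE 0.22). Clozapine minus haloperidol was -0.35 (SE 0.28, interval -0.93 to 0.22, adjusted p = 0.96 in limma), and with array cluster as a block it was -0.66 (SE 0.24, unadjusted p 0.012, adjusted p = 0.78). Among numbers 1 to 6, Nr4a1 averaged 9.43 ± 0.35 in clozapine, 10.07 ± 0.45 in haloperidol and 9.32 ± 1.04 in control mice (SD, n = 6 each). Among numbers 7 to 10 it averaged 9.44 ± 0.24, 9.36 ± 0.91 and 9.19 ± 0.44 in the same order (SD, n = 4 each).

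Nr4a2, the Nurr1 receptor of dopamine neurons, had differences from control of opposite sign in its pair of probe sets. Probe set 1450750_a_at had a lowest, median and highest value of 7.02, 7.82 and 8.16 in clozapine, 7.55, 7.83 and 8.36 in haloperidol and 6.80, 7.75 and 8.42 in control mice. Probe set 1450749_a_at had 5.49, 5.79 and 6.22 in clozapine, 5.11, 5.89 and 6.75 in haloperidol and 5.45, 5.98 and 6.73 in control mice. The groups overlapped widely in both.

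Clozapine minus control was 0.12 (SE 0.16, interval -0.21 to 0.45) for 1450750_a_at and -0.23 (SE 0.19, interval -0.61 to 0.16) for 1450749_a_at. Haloperidol minus control was 0.23 (SE 0.16, interval -0.10 to 0.56) and -0.11 (SE 0.19, interval -0.49 to 0.27). For 1450750_a_at, haloperidol minus control was 0.40 with array cluster as a block (SE 0.15, interval 0.09 to 0.70, unadjusted p 0.012) and 0.39 without the 3 outlying arrays (SE 0.16, unadjusted p 0.023), and clozapine minus control was 0.23 with the block and 0.20 without control 1. For 1450749_a_at the block turned both signs, to 0.02 (SE 0.12) for clozapine and 0.09 (SE 0.12) for haloperidol, and haloperidol minus control was -0.02 without haloperidol 7. None of these was called by limma in the fit without array cluster, with adjusted p-values of 0.9997 for clozapine and 0.9999 for haloperidol. With array weights, 1450749_a_at was called for clozapine minus control at -0.49 (SE 0.17, adjusted p = 0.049 in limma). That fit gave the highest weights to control arrays 7 to 10, all of cluster B, and did not hold array cluster. In 1450749_a_at all 8 arrays of cluster B, at 6.09 to 6.75, lay above all 11 of cluster A, at 5.45 to 5.91, while in 1450750_a_at the clusters had 7.16 to 8.03 and 6.80 to 8.36. Between clusters A and B, the probe sets of this gene thus ordered the mice differently. Within clusters A, B and C their Pearson correlation was 0.46, -0.15 and 0.51, and their Spearman correlation 0.58, 0.21 and 0.32.

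Nr4a3, the Nor1 receptor, lay near the floor with 1421080_at at 2.03 to 2.14 in clozapine, 1.95 to 2.15 in haloperidol and 1.92 to 2.43 in control mice. Its other probe set, 1421079_at, ran from 1.93 to 2.08 in clozapine, 1.84 to 2.14 in haloperidol and 1.81 to 2.17 in control mice. The highest array in both was control 5. Without the filter, no Nr4a3 or Egr3 difference was above 0.044 in size, and none had an unadjusted p under 0.05.

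**Figure D2:**
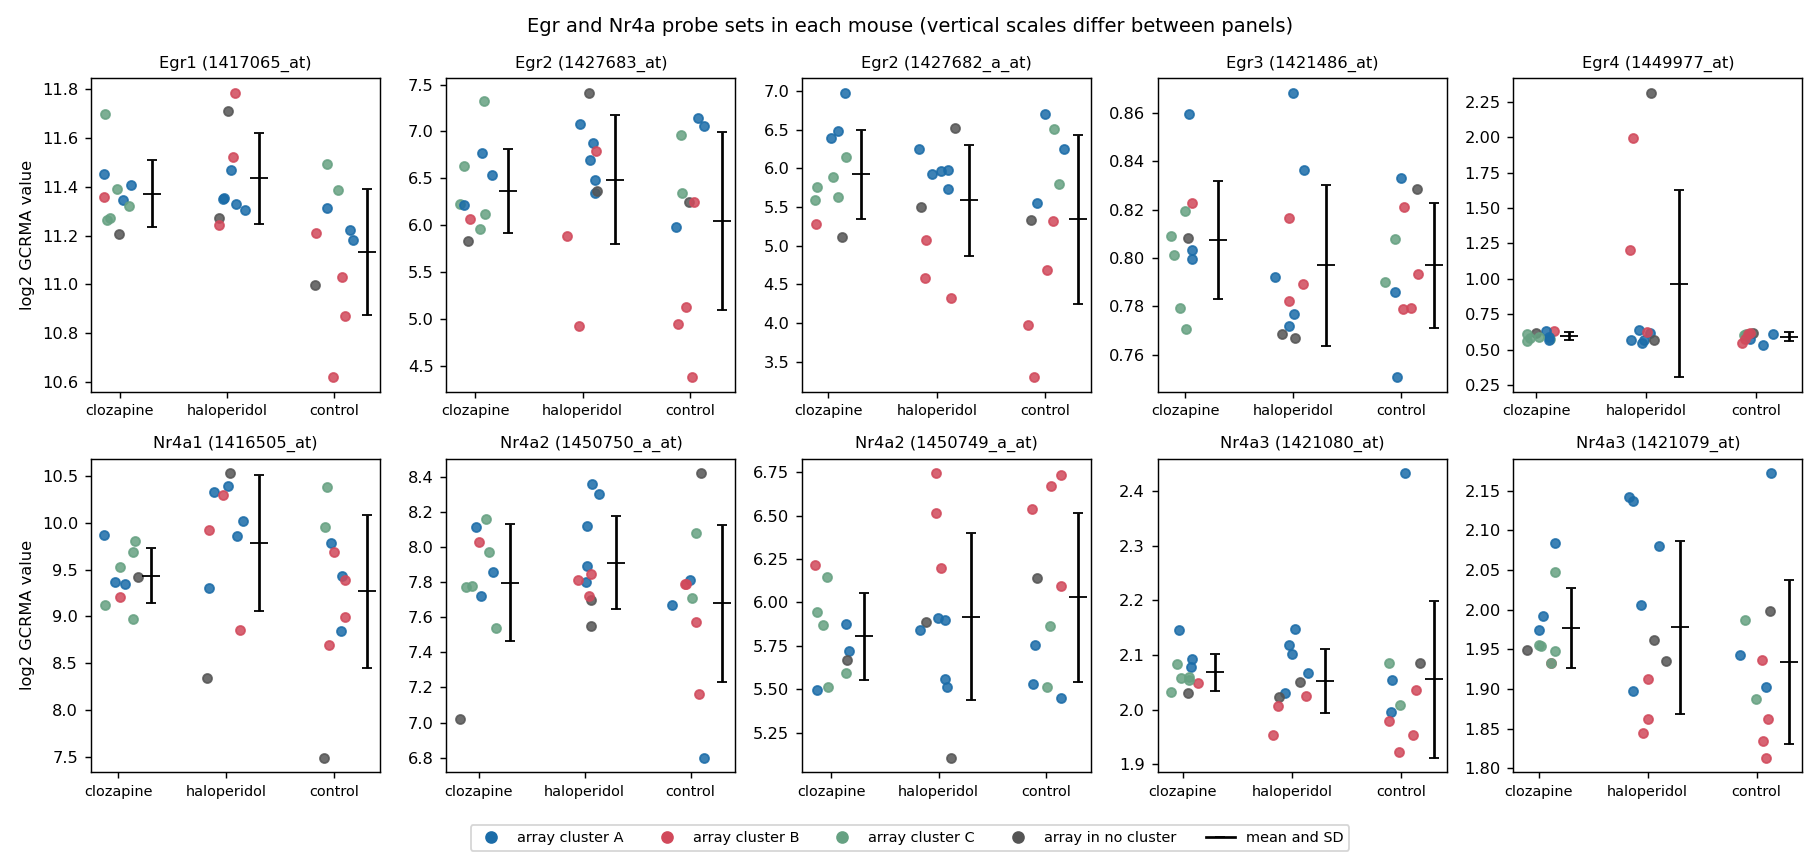
Log2 GCRMA value of each of the 10 probe sets (vertical axes, scales differ) in each mouse by group, with points coloured by array cluster and bars for the mean and SD of 10 mice. Egr4 stands above 1 in 3 haloperidol mice, and the 4 lowest arrays of Egr2 1427683_at are of cluster B.

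Across the members, no probe set was called at an adjusted p under 0.05 in any comparison, where 0 of 12944 probe sets were called (0% in each of the 3). At an unadjusted p under 0.05, 1 of 6 member probe sets passed for clozapine minus control, Egr1, beside 4.35% of all probe sets. For haloperidol minus control 1 of 6 passed, again Egr1, beside 2.3%, and for clozapine minus haloperidol 0 of 6, beside 3.14%. The group mean was higher in 5 of 6 member probe sets for clozapine minus control and in 5 of 6 for haloperidol minus control, beside 55.3% and 43.5% of all tested probe sets. For clozapine minus haloperidol it was higher in 1 of 6, beside 60.7%. The drug groups share their controls, so the first 2 of these counts are not independent. With array weights, 3 of 6 were called for clozapine minus control, beside 13.4% of all probe sets. Within replicate numbers 7 to 10, 4 of 6 had an unadjusted p under 0.05 for clozapine minus control, beside 32.6%, and 1 of 6 for haloperidol minus control, beside 3.5%.

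**Figure D3:**
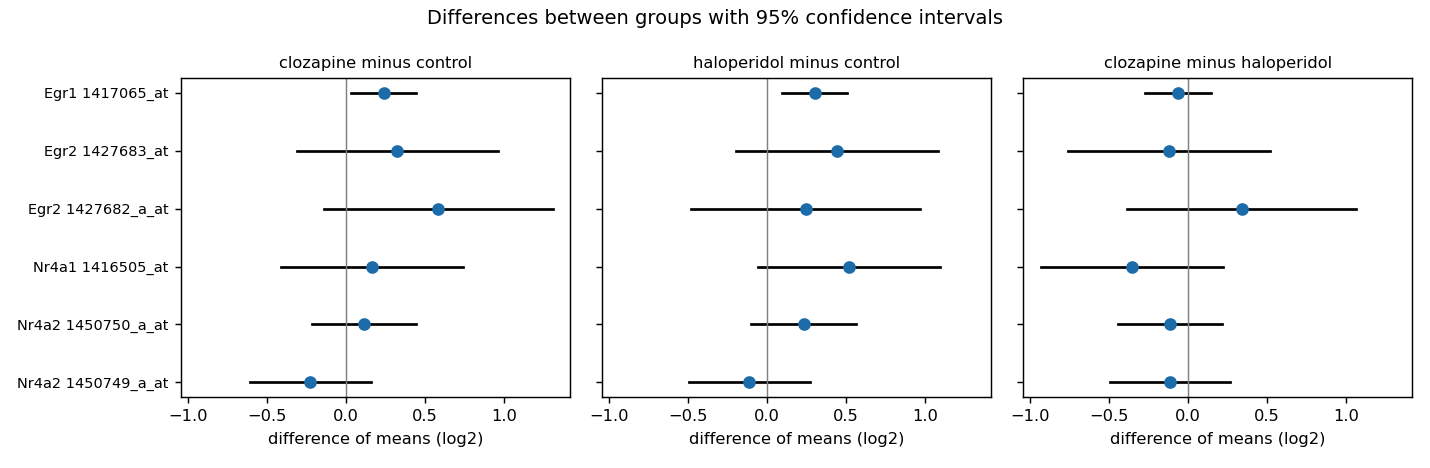
Difference of group means on the log2 scale (horizontal axes) with its 95% confidence interval for the 6 tested probe sets in the 3 comparisons. In this fit, without array cluster, the interval excludes 0 for Egr1 against control mice, at 0.03 to 0.45 for clozapine and 0.09 to 0.51 for haloperidol, and for none of the others.

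Correlations between members across mice were computed within array clusters. Drug groups were pooled in each cluster and not centred, so differences between groups enter these correlations. Within clusters A, B and C, 24 relations were computed, 18 between probe sets of different genes and 6 between those of the same gene, and 16 of the 18 had a Pearson correlation above 0. None passed after adjustment over the 24. The highest between genes were those of cluster B, with exact permutation tests over its 8 mice. Egr1 and Egr2 had r = 0.86 (p = 0.0062, adjusted 0.063) and rho = 0.69 (p = 0.069, adjusted 0.18), and r was 0.60 without the 2 mice farthest from the Egr1 median. Egr2 and Nr4a1 had r = 0.86 (exact p = 0.0084, adjusted 0.063) and rho = 0.83 (p = 0.015, adjusted 0.14), and r was 0.64 without the 2 mice farthest from the Egr2 median.

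For Egr1 and Egr2 the other clusters gave r = -0.09 over 11 mice in cluster A (permutation p = 0.79, adjusted 0.83) with rho = -0.30 (p = 0.37, adjusted 0.56). In cluster C, over 7 mice, r was 0.09 (exact p = 0.84, adjusted 0.84) and rho 0.18 (p = 0.71, adjusted 0.74). Egr2 and Nr4a1 had r = 0.64 in cluster A (permutation p = 0.036, adjusted 0.14) with rho = 0.64 (p = 0.039, adjusted 0.16), and r = 0.51 in cluster C (exact p = 0.25, adjusted 0.43) with rho = 0.54 (p = 0.24, adjusted 0.44). In cluster A, r was 0.30 without the 2 farthest mice. With the other Egr2 probe set, 1427682_a_at, the correlation with Nr4a1 was 0.00031 in cluster A, 0.57 in B and 0.65 in C, with adjusted permutation p-values of 0.999, 0.36 and 0.36. With that probe set, Egr1 and Egr2 had r = 0.68 in cluster B (adjusted permutation p 0.36). For Nr4a1 and Nr4a2, r was 0.33 in cluster A, 0.20 in B and 0.56 in C, with adjusted permutation p-values of 0.46, 0.74 and 0.41, and rho was 0.28, 0.55 and 0.32, with 0.57, 0.34 and 0.63.

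The genes whose pattern was most like each member were taken as the 3 highest Pearson correlations among the tested probe sets with 1 symbol, over 26 mice with each cluster centred on its mean. For Nr4a1 these were Arc, whose product acts at synapses after activity, at 0.90, Tiparp at 0.76 and Fos, a subunit of the AP-1 factor, at 0.75. The value for Arc was 0.92, 0.88 and 0.95 in clusters A, B and C, and 0.90 without the 2 mice farthest from the Nr4a1 median. For Egr2 they were Nr4a1 at 0.69, Arc at 0.63 and Golph3l at 0.62, with Egr1 next. For Egr1 they were Tsc22d3 at 0.64, Stk40 at 0.62 and Egr2 at 0.62, and without the 2 farthest mice these were 0.24, 0.41 and 0.28.

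Nr4a2 was most like Mapk8 at 0.81, Tbl1x at 0.81 and Nipal2 at 0.81, and Nr4a1 ranked 2384 for it. For Egr4, carried by 2 of its 3 high arrays within the clusters, the likest were Ak4 at 0.77, Acta1 at 0.75 and Egr1 at 0.72, and without the 2 farthest mice these were 0.35, 0.32 and 0.47. For Egr3 they were Tarbp2 at 0.91, Yipf4 at 0.84 and Nppa at 0.80, and for Nr4a3 Wipi1 at 0.95, Ddr2 at 0.93 and Grwd1 at 0.93, all over values near the floor. These correlations were the highest of many, share arrays and normalization, and are given as a description. Values were centred on array cluster and not on drug group, so differences between groups enter here too.

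**Figure D4:**
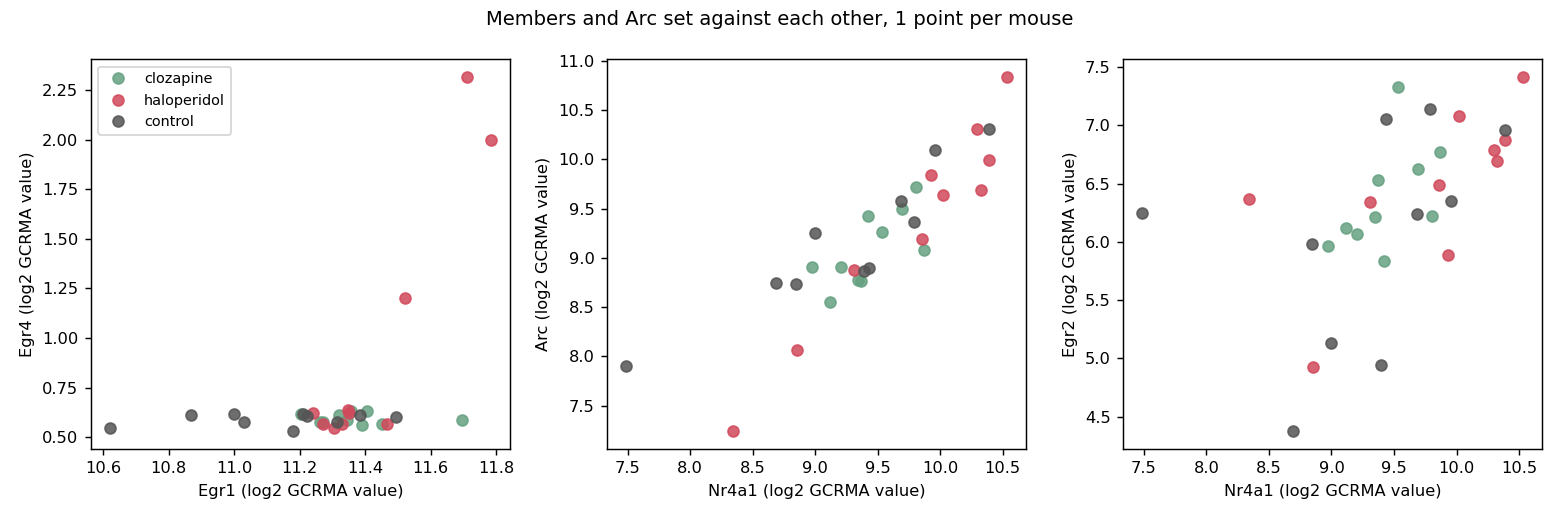
Log2 GCRMA values of pairs of genes, 1 point per mouse, coloured by group: Egr4 against Egr1, Arc against Nr4a1 and Egr2 1427683_at against Nr4a1. Egr4 is above 1 in 3 haloperidol mice with high Egr1, and Arc follows Nr4a1 with a correlation of 0.90 within clusters.

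Arc itself had 9.09 ± 0.38 in clozapine, 9.37 ± 1.07 in haloperidol and 9.18 ± 0.71 in control mice (SD, n = 10 each). Among the other immediate early genes, 24 of 30 were tested and none was called in any comparison (0% of all probe sets). Their median difference was -0.04 for clozapine minus control, 0.11 for haloperidol minus control and -0.19 for clozapine minus haloperidol, beside 0.02, -0.03 and 0.05 over all tested probe sets. The mean was higher in 11, 16 and 7 of the 24 in the same order.

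The genes of that list with the smallest p-values were Per1 and Homer1 for clozapine minus control, Jund and Rheb for haloperidol minus control and Fos and Gadd45b between the drugs. Per1, a clock gene that CREB induces, had 8.26 ± 0.35 in clozapine and 7.59 ± 0.79 in control mice, a difference of 0.67 (SE 0.30). Homer1, a scaffold of glutamate receptors with an activity-induced short form, differed by -0.53 (SE 0.30), at 7.56 ± 0.73 in clozapine and 8.09 ± 0.63 in control mice. Jund had 10.21 ± 0.26 in haloperidol and 9.98 ± 0.18 in control mice, a difference of 0.23 (SE 0.10), and Rheb differed by -0.15 (SE 0.10). Fos had 9.75 ± 0.39 in clozapine and 10.04 ± 0.51 in haloperidol mice, a difference of -0.29 (SE 0.19), and Gadd45b differed by -0.43 (SE 0.30).

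Of the signalling genes upstream of Egr and Nr4a promoters, 17 of 23 were tested and none was called. Srf, whose product binds the CArG motif in general, had 8.37 ± 0.11 in clozapine, 8.27 ± 0.47 in haloperidol and 7.92 ± 0.27 in control mice. Its binding at the boxes in the Egr2 windows was not tested. Its differences from control were 0.45 (SE 0.15, unadjusted p 0.0045) for clozapine and 0.34 (SE 0.15, unadjusted p 0.025) for haloperidol, with adjusted p-values of 0.9997 and 0.9999 in limma. Camk4, a calcium-dependent kinase that activates CREB, had 5.57 ± 0.17 in clozapine, 5.79 ± 0.34 in haloperidol and 6.21 ± 0.61 in control mice. Its differences were -0.64 (SE 0.18, unadjusted p 0.0015) and -0.42 (SE 0.18, unadjusted p 0.030), with adjusted p-values of 0.9997 and 0.9999 in limma. Between the drugs, Rps6ka3 differed by 0.51 (SE 0.30) and Mef2c by 0.17 (SE 0.14).

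Of 11 cofactors and partners of the members, 7 were tested and none was called. Crebbp, a coactivator, differed by 0.22 (SE 0.11) between clozapine and control mice and by 0.20 (SE 0.11) between clozapine and haloperidol mice. Nab1, a corepressor of Egr proteins, differed by -0.42 (SE 0.27) between clozapine and control mice. Rxrb, of the family of partner receptors of Nr4a proteins, and Nab2, an Egr corepressor and Egr target, differed by 0.22 (SE 0.14) and 0.26 (SE 0.21) between haloperidol and control mice, and Nab2 by -0.18 (SE 0.21) between the drugs.

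Of 14 reported target genes, 11 were tested and none was called. Syn2, a synaptic vesicle protein, differed by -0.55 (SE 0.38) between clozapine and control mice and by -0.56 (SE 0.38) between the drugs, and Bdnf, a neurotrophin, by -0.25 (SE 0.26) between clozapine and control mice. Aldh1a1, an enzyme of dopamine neurons, differed by -0.50 (SE 0.26) between haloperidol and control mice and by 0.43 (SE 0.26) between the drugs. The median difference of the 11 was -0.02 for clozapine minus control, 0.01 for haloperidol minus control and -0.03 between the drugs.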

How the data were processed

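RNA of 30 mice was measured, 10 per group, with groups read from the sample titles. Deposited values were log2 expression per probe set. The submitters' processing notes name GCRMA, whose version is not given in the sources used here. GCRMA corrects background by probe sequence, normalizes, summarises probes, and narrows low values. The 64 Affymetrix control probe sets were dropped from the 22690. Of 22626 others, 20380 had 1 gene symbol, 691 several and 1555 none in the platform annotation supplied with the data, and only those with 1 symbol were named. No genome build is named for the values. All value columns were mapped to a mouse.

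Group means were compared by lmFit and eBayes of limma 3.58.1 (R 4.3.3), in 1 fit of the 30 arrays. Two-sided p-values were adjusted by Benjamini and Hochberg's method over 12944 probe sets with a mean of at least 4, and calls were made at an adjusted p under 0.05. The fit was tested on simulated data with independent noise, no array clusters and shifts in the clozapine group only. That test cannot show how the fit behaves with clusters partly confounded with drug. The number of arrays limits the precision. Clusters came from average linkage with the tree split into 7 branches, and those of at least 6 arrays were kept. Correlations used 100000 permutations, or exact enumeration under 10 mice, in Python 3.11.15 with scipy 1.17.1. Named genes were all members, the 2 genes of smallest p per list and comparison, and the 3 genes most like each member, read on its probe set with the highest mean. The members and lists were chosen with earlier results of these data known. Alternatives were the filter, quantile normalization, array cluster, RNA quality, replicate number, outlying arrays, the samples in the fit, array weights and, for the correlations, another probe set of the gene.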

Additional observations from a re-analysis of the deposited data

Results flagged for a closer look

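Of 30 groups of 10 arrays tested for a mouse far from the others (10 probe sets in 3 groups), 3 were flagged, and chance flags about 1 in 20 groups. Egr1 in the clozapine group had its highest value in clozapine 10, at 11.70, with the next at 11.45. Nr4a3 in the control group had its highest value in control 5 with both probe sets, at 2.43 with the next at 2.09 for 1421080_at, and at 2.17 with the next at 1.999 for 1421079_at. Both Nr4a3 values are near the floor.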

How the results depend on the processing

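For the 18 differences of member probe sets, 216 values were computed under 12 other settings and 66 under splits chosen after seeing the data. Under the settings 8 changed sign and 3 passed the threshold, and under the splits 18 changed sign. Array weights gave 1731 calls for clozapine minus control (13.4% of all probe sets) and 3 member calls. Weights were 3.44 to 4.86 for control arrays 7 to 10, all of cluster B. These calls were Egr1 at 0.39 (adjusted p = 0.017, range over its 16 alternatives 0.017 to 0.9996), Egr2 1427682_a_at at 1.21 (0.034, range 0.034 to 0.9996) and Nr4a2 1450749_a_at at -0.49 (0.049, range 0.049 to 0.9996), all in limma. Array weights also turned Egr2 1427683_at between the drugs to 0.11. With array cluster as a block, 1 probe set was called for haloperidol minus control, of Eif3a, which was named after its value was seen. That block turned Nr4a1 to -0.21 and Nr4a2 1450749_a_at to 0.0247 for clozapine minus control, and Egr2 1427682_a_at to -0.0752 and Nr4a2 1450749_a_at to 0.0886 for haloperidol minus control. Without control replicate 1, and without the 3 outlying arrays, Nr4a1 was -0.0308 for clozapine minus control, and without the 3 arrays Nr4a2 1450749_a_at was 0.0067 for haloperidol minus control.

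Within replicates 7 to 10, limma called 1062 probe sets for clozapine minus control and 32 between the drugs, none of them members, and between the drugs Egr2 1427683_at was 0.48 and Nr4a1 0.0871. Within replicates 1 to 6, Egr2 1427683_at was -0.33 and Nr4a2 1450749_a_at 0.10 for clozapine minus control, and Nr4a2 1450749_a_at was 0.0589 for haloperidol minus control and 0.0388 between the drugs. Within cluster A, Egr2 1427683_at was -0.22 and Nr4a2 1450749_a_at 0.12 for clozapine minus control. For haloperidol minus control there, Egr2 was -0.0303 in 1427683_at and -0.19 in 1427682_a_at and Nr4a2 1450749_a_at 0.17, and Egr1 was 0.0405 between the drugs. Within cluster C, clozapine minus control was -0.0501 for Egr1, -0.20 and -0.35 for Egr2 1427683_at and 1427682_a_at, -0.75 for Nr4a1, and -0.0485 and 0.12 for Nr4a2 1450750_a_at and 1450749_a_at. The causes were not tested. With another probe set of the gene, the correlation of Egr1 and Egr2 in cluster A was 0.38, that of Nr4a1 and Nr4a2 in cluster C -0.0183 and that of Egr2 and Nr4a1 in cluster A 0.00031. The 3 outlying arrays are in no cluster, so leaving them out cannot move a correlation.

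Replicate numbers were not taken as pairs of mice: of 10 same-numbered pairs, 5 for clozapine and control, 5 for haloperidol and control and 7 for clozapine and haloperidol had deviations correlated above 0.1. These correlations ran from -0.50 to 0.70, from -0.31 to 0.80 and from -0.19 to 0.70 in the same order. Only 3, 1 and 1 of 10 mice correlated best with their own number. With the replicate number as a block, 0 probe sets were called in each comparison, with 846, 540 and 642 at an unadjusted p under 0.05 in the same order as the pairs. Without the block these were 563, 298 and 406. Of the 6 member probe sets, 2, 2 and 0 were among them with the block. Egr2 1427682_a_at for clozapine minus control had an unadjusted p of 0.032 (SE 0.25), and Nr4a1 for haloperidol minus control 0.045 (SE 0.24), both in limma.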
